A study of Mus musculus with 28 samples.

Results

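The genes described here take up, bind, store and export lipid in macrophages and other cells. They are Apoe, Abca1 and Abcg1 (cholesterol efflux), Lpl and Cd36 (lipid uptake), Fabp4 and Fabp5 (fatty acid binding), Plin2 (lipid droplets), Lipa (lysosomal lipid breakdown) and Nr1h3 (their transcriptional control). They were chosen by name as 10 members of this pathway, and 17097 genes were measured in all. The probe table names a probe set for 9 of the 10, and Abca1, a membrane transporter that loads cholesterol onto lipid-poor apolipoprotein, was not analysed here. Each gene is represented by its brightest probe set, that with the highest mean over the 28 arrays.

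Macrophages take in lipoprotein and free fatty acid through scavenger receptors such as CD36 and after hydrolysis by lipoprotein lipase. Cholesteryl ester reaching the lysosome is split by lysosomal acid lipase, fatty acids are carried by binding proteins, and surplus lipid is held in droplets coated by perilipin 2. Excess cholesterol activates the liver X receptor LXRα, encoded by Nr1h3, which induces the transporters ABCA1 and ABCG1 and their acceptor apolipoprotein E. Macrophages loaded with lipid are a known component of many tumours.

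The RNA came from leukocytes sorted by the surface protein CD45 out of tumours of B16.F10, a mouse melanoma line, or MC38, a mouse colon carcinoma line. Hosts were Nrp1L/LFoxp3Cre-YFP mice, in which floxed Nrp1 is removed where Foxp3 drives Cre, or Foxp3Cre-YFP mice with intact Nrp1. The first are called Nrp1-deleted and the second control, and both carry the Cre and the YFP reporter. Nrp1 encodes the co-receptor neuropilin-1, and Foxp3 defines regulatory T cells, so the deletion was directed at those cells among the sorted leukocytes. Each of the 12 groups is 1 genotype in 1 of 6 settings, which are B16 at an early day, day 12 and day 18 and MC38 at day 6, day 12 and day 18. The B16 day 18 and MC38 day 12 groups have 3 arrays each and the other 8 groups have 2. Titles put the early B16 arrays at day 8 and source names at day 6. The labels give no age and do not tell whether replicate arrays stem from different mice, so the p-values speak only of the spread between these arrays, which could be technical.

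By the distribution of their values, the arrays form 3 sets: B16 day 18 with MC38 day 12, MC38 days 6 and 18, and B16 early with day 12. Levels cannot be told apart from the set when they are compared across sets. Genotypes were always compared within a set, and days only between 2 days of the same set. Nrp1 itself was lower on every Nrp1-deleted array than on every control array in 6 of 6 settings, by 0.32 to 1.62 (log2). Ptprc, which encodes CD45, lay between 11.51 and 12.90 on all arrays. Foxp3 lay between 2.65 and 3.44, under the median of all values of 3.64. Genes of pigment cells were nevertheless present in B16. The mean log2 value of 6 melanocytic genes ranged over 5.84 to 8.95 on Nrp1-deleted B16 arrays and 8.19 to 11.08 on control B16 arrays, against 3.72 to 3.97 on Nrp1-deleted MC38 arrays and 3.75 to 4.04 on control MC38 arrays.

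In B16 tumours, 7 of the 9 measured genes fell in Nrp1-deleted hosts, 1 rose and 1 did not pass the test. Apoe, Lpl, Cd36, Fabp4, Fabp5, Plin2 and Lipa were lower and the exporter Abcg1 was higher. These counts rest on limma with Benjamini-Hochberg adjustment over all genes, averaged over the 3 days. Of all genes, 22.6% passed that test, 12.3% lower and 10.3% higher. The median difference of the 9 genes was -1.35 (log2, Nrp1-deleted minus control), against 0.01 for all genes. All values below are deposited log2 values, and differences are on the same scale, so that a difference of 1 is a doubling of signal.

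**Figure D1:**
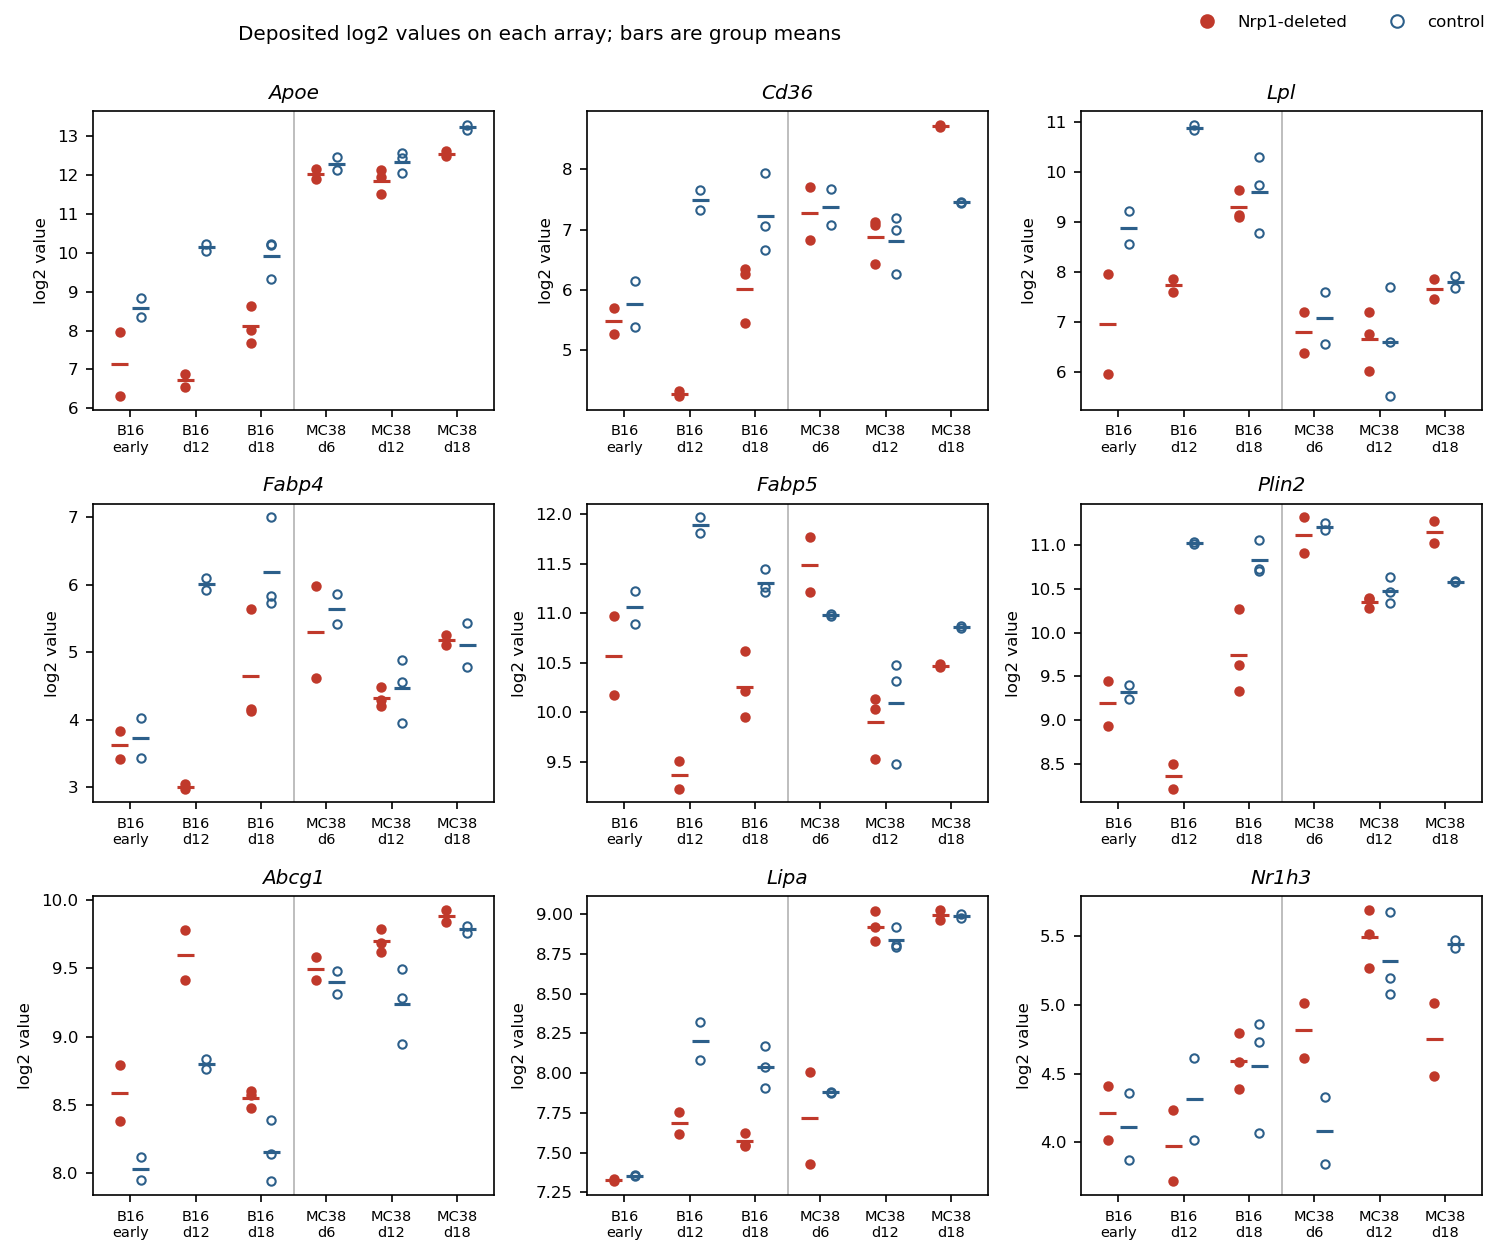
Deposited log2 values of the 9 measured genes (vertical axes, 1 panel a gene) in the 6 settings of tumour and day (horizontal axis), with filled red points for Nrp1-deleted arrays, open blue points for control arrays and bars for group means. At B16 day 12, Cd36 was 4.24 and 4.32 on Nrp1-deleted arrays and 7.65 and 7.33 on control arrays.

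Apoe encodes the apolipoprotein that macrophages secrete and that accepts exported cholesterol. In B16 tumours Apoe was 7.97 and 6.31 on the early day in Nrp1-deleted hosts, against 8.35 and 8.82 in control hosts. On day 12 it was 6.56 and 6.88 in Nrp1-deleted hosts, against 10.05 and 10.23 in control hosts. On day 18 it was 8.02, 7.68 and 8.63 in Nrp1-deleted hosts, against 10.19, 9.33 and 10.22 in control hosts. Every Nrp1-deleted array was below every control array on all 3 days, with the widest gap on day 12. Over the 3 days Apoe was 4.68-fold lower in Nrp1-deleted hosts (log2 difference -2.23 ± 0.20, SE, limma adjusted p = 1.59e-08). On day 12 alone it was 10.7-fold lower (adjusted p = 2e-07), and on day 18 it was 3.49-fold lower (adjusted p = 0.000106).

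Lpl encodes the secreted lipase that frees fatty acids from circulating lipoprotein. In B16 tumours Lpl was 7.96 and 5.94 on the early day in Nrp1-deleted hosts, against 8.56 and 9.22 in control hosts. On day 12 it was 7.59 and 7.87 in Nrp1-deleted hosts, against 10.95 and 10.84 in control hosts. On day 18 it was 9.65, 9.14 and 9.11 in Nrp1-deleted hosts, against 10.31, 8.78 and 9.74 in control hosts. The genotypes were apart on the early day and on day 12 and overlapped on day 18. The fall over the 3 days was 3.5-fold (-1.81 ± 0.32, limma adjusted p = 0.000148). It was 8.99-fold on day 12 (adjusted p = 0.000359), while on day 18 the difference was -0.31 ± 0.48 (adjusted p = 0.749).

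Cd36 encodes the scavenger receptor for fatty acids and oxidised lipoprotein. In B16 tumours Cd36 was 5.70 and 5.27 on the early day in Nrp1-deleted hosts, against 5.39 and 6.15 in control hosts. On day 12 it was 4.24 and 4.32 in Nrp1-deleted hosts, against 7.65 and 7.33 in control hosts. On day 18 it was 6.27, 5.45 and 6.35 in Nrp1-deleted hosts, against 6.67, 7.06 and 7.94 in control hosts. The genotypes overlapped on the early day and were apart on both later days. Cd36 fell 2.97-fold over the 3 days (-1.57 ± 0.21, limma adjusted p = 4e-06). It fell 9.28-fold on day 12 (adjusted p = 1.07e-06) and 2.31-fold on day 18 (adjusted p = 0.00765). The day 18 call was lost without Nrp1-deleted replicate 2 or without control replicate 3, with a difference between -0.92 and -0.85 and an adjusted p between 0.0702 and 0.0782.

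Fabp4 and Fabp5 encode small cytosolic carriers of fatty acids. Fabp4 in B16 tumours was 3.84 and 3.43 on the early day in Nrp1-deleted hosts, against 3.43 and 4.03 in control hosts. Its day 12 values were 2.98 and 3.04 in Nrp1-deleted hosts, against 6.10 and 5.93 in control hosts. Its day 18 values were 4.13, 4.16 and 5.65 in Nrp1-deleted hosts, against 5.84, 5.73 and 7.0 in control hosts. The early values of both genotypes and the Nrp1-deleted values of day 12 lay near the median of all values on the arrays, 3.64, or below it. Fabp4 fell 2.92-fold over the 3 days (-1.55 ± 0.25, limma adjusted p = 5.95e-05). The difference was -3.00 ± 0.47 on day 12 (adjusted p = 4.38e-05), where no fold is given because both Nrp1-deleted values lay under that median. With the next brightest probe set the day 12 difference was -1.65. On day 18 Fabp4 fell 2.92-fold (adjusted p = 0.00519), and that call was lost without control replicate 3 (-1.14, adjusted p = 0.0541).

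Fabp5 was 10.97 and 10.17 on the early B16 day in Nrp1-deleted hosts, against 10.90 and 11.23 in control hosts. The day 12 values were 9.23 and 9.51 in Nrp1-deleted hosts, against 11.81 and 11.97 in control hosts. The day 18 values were 10.21, 9.95 and 10.62 in Nrp1-deleted hosts, against 11.22, 11.27 and 11.45 in control hosts. The genotypes did not overlap on either later day. Fabp5 fell 2.56-fold over the 3 days (-1.35 ± 0.15, limma adjusted p = 2.6e-07), with 5.75-fold on day 12 (adjusted p = 2.3e-07) and 2.07-fold on day 18 (adjusted p = 0.00136).

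Plin2 encodes perilipin 2, which coats lipid droplets. In B16 tumours Plin2 was 9.45 and 8.94 on the early day in Nrp1-deleted hosts, against 9.24 and 9.40 in control hosts. Its day 12 values were 8.22 and 8.50 in Nrp1-deleted hosts, against 11.01 and 11.03 in control hosts. Its day 18 values were 9.63, 9.33 and 10.26 in Nrp1-deleted hosts, against 10.73, 10.70 and 11.06 in control hosts. The early values overlapped and the later ones did not. Plin2 fell 2.45-fold over the 3 days (-1.29 ± 0.11, limma adjusted p = 1.06e-08). It fell 6.34-fold on day 12 (adjusted p = 3.48e-09) and 2.13-fold on day 18 (adjusted p = 4.27e-05).

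Abcg1 encodes a transporter that moves cholesterol to lipoprotein particles, and its difference ran the other way. In B16 tumours Abcg1 was 8.38 and 8.79 on the early day in Nrp1-deleted hosts, against 7.95 and 8.12 in control hosts. The day 12 values were 9.78 and 9.41 in Nrp1-deleted hosts, against 8.84 and 8.76 in control hosts. The day 18 values were 8.48, 8.60 and 8.57 in Nrp1-deleted hosts, against 8.14, 7.94 and 8.39 in control hosts. Every Nrp1-deleted array was above every control array on all 3 days. Of all genes, 21.2% stood above in this way on the early day, 31.6% on day 12 and 13.6% on day 18. Abcg1 rose 1.5-fold over the 3 days (0.58 ± 0.09, limma adjusted p = 1.67e-05) and 1.74-fold on day 12 (adjusted p = 0.00075). The 1.31-fold rise on day 18 (adjusted p = 0.0346) was lost in 5 of the 6 fits without 1 array of that day, all but the one without control replicate 3, with differences between 0.29 and 0.43 and adjusted p between 0.0521 and 0.187. T cell genes were also higher. Of 6 T cell genes, 4 rose in Nrp1-deleted B16 hosts, and their mean log2 value ranged over 9.86 to 10.81 on Nrp1-deleted arrays and 9.21 to 9.94 on control arrays. Their part in the Abcg1 difference was not tested.

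Lipa encodes lysosomal acid lipase. In B16 tumours Lipa was 7.34 and 7.32 on the early day in Nrp1-deleted hosts, against 7.36 and 7.35 in control hosts. On day 12 it was 7.75 and 7.62 in Nrp1-deleted hosts, against 8.32 and 8.08 in control hosts, and on day 18 it was 7.54, 7.55 and 7.62 in Nrp1-deleted hosts, against 8.17, 7.90 and 8.04 in control hosts. The gaps were small beside those of the uptake genes, and the replicates lay close together. Lipa fell 1.26-fold over the 3 days (-0.34 ± 0.07, limma adjusted p = 0.00114), 1.43-fold on day 12 (adjusted p = 0.00753) and 1.38-fold on day 18 (adjusted p = 0.00321). The day 12 call was lost without Nrp1-deleted replicate 2 or without control replicate 1 (-0.45 to -0.40, adjusted p 0.0819 to 0.133).

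Nr1h3 encodes LXRα, the nuclear receptor whose known targets include Apoe and Abcg1. In B16 tumours its values ranged over 3.72 to 4.79 with a median of 4.39 on the 7 Nrp1-deleted arrays, and over 3.87 to 4.86 with a median of 4.36 on the 7 control arrays. The ranges were nearly the same. The difference over the 3 days was -0.07 ± 0.16 (limma adjusted p = 0.831), with overlapping genotypes on every day. A low signal limits what this probe set can show.

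The early B16 day gave 0 of 9 calls, where 0.445% of all genes passed, and 3 of the 9 genes (Apoe, Lpl and Abcg1) had an unadjusted p under 0.05. The Nrp1-deleted arrays of that day differed from each other, since Apoe was 7.97 and 6.31 and Lpl 7.96 and 5.94 on replicates 1 and 2. Without replicate 1, Apoe differed by -2.28, Lpl by -2.95 and Abcg1 by 0.76. Without replicate 2 instead, Apoe differed by -0.62 and Lpl by -0.93. Each of these fits left 1 Nrp1-deleted array. On day 12, limma called 8 of 9 genes against 17% of all genes, and on day 18 it called 7 of 9 against 18.8%. The genotypes did not overlap, with the Nrp1-deleted arrays lower, for 3 genes on the early day, 7 on day 12 and 6 on day 18. The same was true of 22.9%, 24.1% and 15.8% of all genes on these days. The 3 early genes were Apoe, Lpl and Lipa, and Lipa differed by only -0.03.

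**Figure D2:**
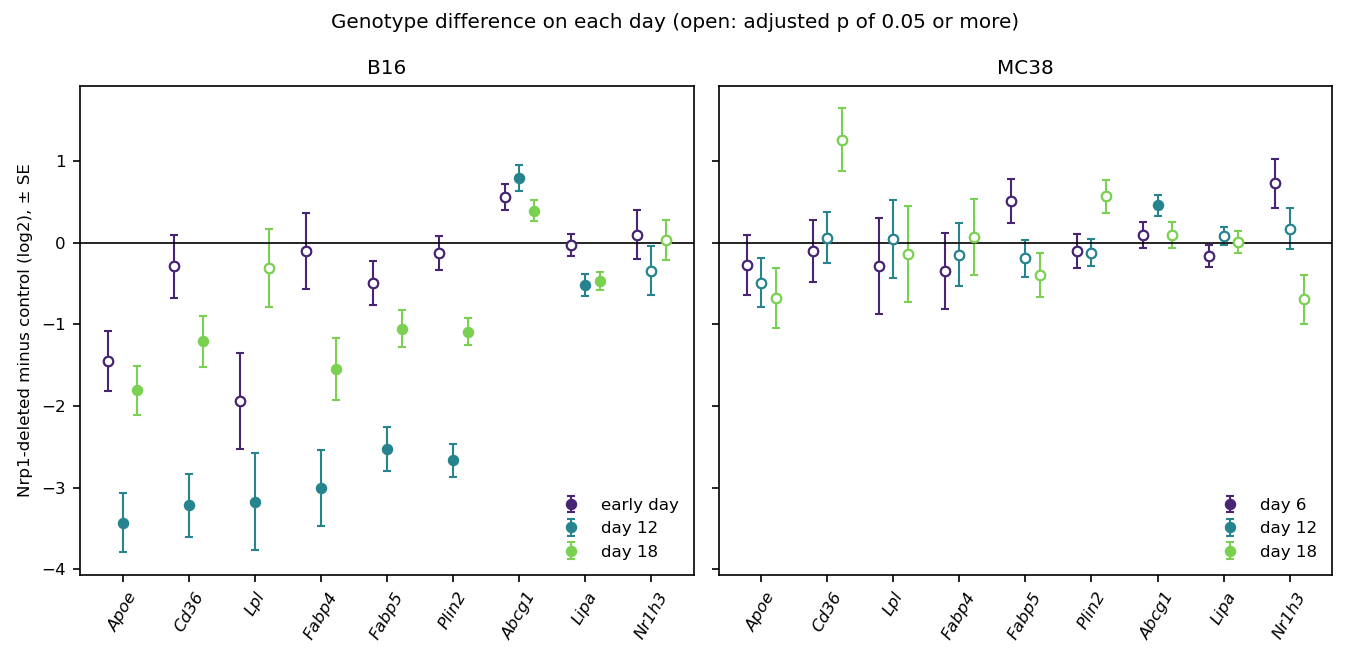
Genotype difference of each gene on each day (log2, Nrp1-deleted minus control, ± SE from limma), in B16 on the left and MC38 on the right, with filled points where the adjusted p was under 0.05. At B16 day 12 the differences of Apoe, Cd36, Lpl, Fabp4, Fabp5 and Plin2 lay between -3.43 and -2.52, while the values of MC38 lay between -0.69 and 1.27.

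The falls came with lower macrophage marker genes. In B16 tumours all 9 measured macrophage genes of a list of 10 (Adgre1, Csf1r, C1qa, C1qb, C1qc, Mertk, Fcgr1, Cd68 and Mrc1) fell in Nrp1-deleted hosts, by a mean of -1.94 (log2). Their mean level ranged over 6.11 to 8.22 on Nrp1-deleted B16 arrays and over 7.78 to 9.92 on control B16 arrays. By day, the mean of the list differed by -0.90 on the early day, -3.46 on day 12 and -1.47 on day 18. The early Nrp1-deleted replicates 1 and 2 stood at 7.70 and 6.26 on this list, and replicate 2 was also the lower for Apoe and Lpl. In sorted bulk RNA, fewer cells of a type and less RNA per cell cannot be told apart.

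Set beside the macrophage list, the genes split. Over the 3 B16 days the difference of Apoe minus that of the list was -0.28, that of Lpl 0.14, of Cd36 0.37, of Fabp4 0.40, of Fabp5 0.59 and of Plin2 0.65. In this average Apoe thus differed by somewhat more than the list, and the others by less. Lipa stood 1.61 above the list, Nr1h3 1.87 and Abcg1 2.53. The list itself differed by -1.94, so a gene without a genotype difference stands as far above it. Nr1h3, at a low signal, differed by -0.07. On the early day the gap was -1.04 for Lpl and -0.55 for Apoe, and 0.41 to 0.80 for Cd36, Fabp4, Fabp5 and Plin2. On day 12 these gaps were 0.03 for Apoe, 0.25 for Cd36, 0.29 for Lpl, 0.46 for Fabp4, 0.80 for Plin2, 0.94 for Fabp5 and 4.26 for Abcg1. On day 18 Lpl stood 1.16 above the list and Fabp4 0.07 below it. These gaps were not tested, nor was the part of the macrophage genes in each gene's difference.

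**Figure D3:**
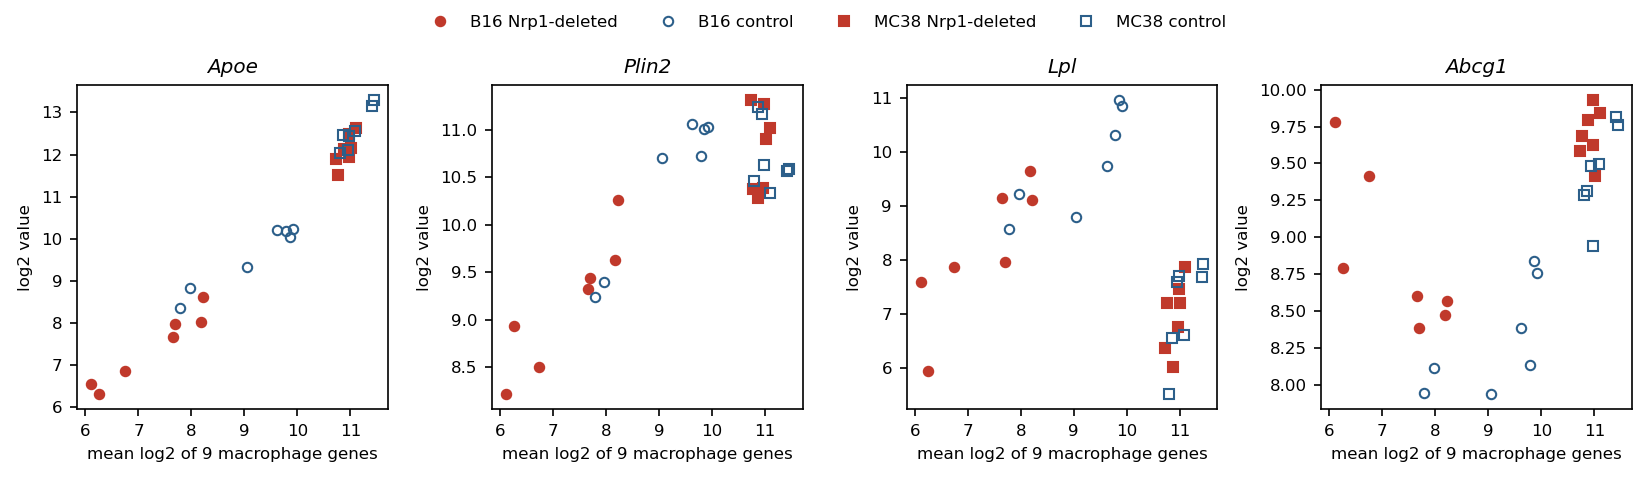
Deposited log2 value of Apoe, Plin2, Lpl and Abcg1 (vertical axes) against the mean log2 value of the 9 macrophage genes (horizontal axis) on each of the 28 arrays, with B16 as circles, MC38 as squares, filled red for Nrp1-deleted and open blue for control. The B16 arrays spread over 6.11 to 9.92 on the macrophage axis and the MC38 arrays over 10.73 to 11.45.

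Other cell types also moved. In B16, 6 of 6 melanocytic genes fell in Nrp1-deleted hosts (mean -1.75, with -2.20 on day 12 and -3.21 on day 18), 3 of 3 dendritic cell genes fell and 3 of 4 neutrophil genes fell. On the early day the mean difference of the melanocytic list was 0.15. Days 12 and 18 belong to different array sets. Fabp4, Lpl, Plin2 and Cd36 are also adipocyte genes, and Fabp4 and Cd36 are endothelial genes. Cd36 is also a platelet gene and Fabp5 a keratinocyte gene. Of the 3 measured adipocyte markers, Adipoq did not exceed 2.96, Lep 3.26 and Retn 4.11 on any array, against the median of all values of 3.64. In B16, 0 of the 3 passed limma. Of the 6 endothelial markers, Tek did not exceed 2.94, Emcn 3.51, Cdh5 3.79 and Cldn5 4.10, while Pecam1 ranged over 4.28 to 6.77 and Kdr over 3.93 to 6.09. In B16, 1 of the 6 fell. Of 4 platelet markers 1 fell in B16 (mean of the list -0.51), and 0 of 3 keratinocyte markers passed, against 22.6% of all genes. The part of these lists in the lipid gene differences was not tested.

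In MC38 tumours the lipid genes did not differ between genotypes past the threshold. Limma called 0 of the 9, where 19.3% of all genes passed, and 2 genes (Apoe and Abcg1) had an unadjusted p under 0.05. Apoe was 12.15 and 11.89 on day 6 in Nrp1-deleted hosts, against 12.47 and 12.12 in control hosts, 11.51, 11.94 and 12.12 on day 12 in Nrp1-deleted hosts, against 12.55, 12.04 and 12.44 in control hosts, and 12.62 and 12.48 on day 18 in Nrp1-deleted hosts, against 13.29 and 13.16 in control hosts. Only on day 18 did the genotypes stand apart. The difference over the 3 days was -0.48 ± 0.20 (adjusted p = 0.098). Of all genes, 42.1% stood apart in either direction on MC38 day 6, 25.4% on day 12 and 52.3% on day 18. Abcg1 differed by 0.22 ± 0.09 (adjusted p = 0.0804), and it passed without day 12 control replicate 1 (0.26, adjusted p = 0.0314).

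Cd36 was 8.74 and 8.69 on MC38 day 18 in Nrp1-deleted hosts, against 7.45 and 7.45 in control hosts. All values of Nrp1-deleted hosts were above those of controls on that day, and on the other days the genotypes overlapped. The day 18 difference was 1.27 ± 0.38, a ratio of 2.4 in signal, but the adjusted p was 0.0551. Plin2 leaned the same way on that day, with 11.02 and 11.28 in Nrp1-deleted hosts and 10.59 and 10.57 in control hosts (0.57 ± 0.20, adjusted p = 0.112). Limma called 0 of 9 genes on day 18, where 5.36% of all genes passed, and 3 genes (Cd36, Nr1h3 and Plin2) had an unadjusted p under 0.05.

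Nr1h3 had opposite signs on the outer MC38 days. It was 5.01 and 4.61 on day 6 in Nrp1-deleted hosts, against 3.84 and 4.33 in control hosts, and 4.48 and 5.02 on day 18 in Nrp1-deleted hosts, against 5.41 and 5.47 in control hosts. The genotypes were apart on both days. Neither difference passed, with 0.73 ± 0.30 on day 6 (adjusted p = 0.214) and -0.69 ± 0.30 on day 18 (adjusted p = 0.211), and the change between these days did not either (-1.42 ± 0.42, adjusted p = 0.282). Limma called 0 of 9 genes on day 6, where 2.97% of all genes passed and Nr1h3 had an unadjusted p under 0.05. Lipa on that day was 8.01 and 7.43 on Nrp1-deleted replicates 1 and 2, against 7.88 and 7.88 in control hosts. Its difference was -0.45 without replicate 1 and 0.13 without replicate 2, each with 1 Nrp1-deleted array left. Of that change between days, 0 of 9 genes were called (0.0819% of all genes), with 4 at an unadjusted p under 0.05.

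Fabp5 had the same pattern of signs. It was 11.21 and 11.77 on MC38 day 6 in Nrp1-deleted hosts, against 10.97 and 10.99 in control hosts, and 10.49 and 10.45 on day 18 in Nrp1-deleted hosts, against 10.85 and 10.87 in control hosts. The genotypes were apart on both days, and neither difference passed (0.51 ± 0.27, adjusted p = 0.38, and -0.39 ± 0.27, adjusted p = 0.51). As many as 42.1% of all genes were apart in either direction on day 6 and 52.3% on day 18.

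Abcg1 was the gene called on an MC38 day. On day 12 it was 9.69, 9.62 and 9.79 in Nrp1-deleted hosts, against 9.50, 9.28 and 8.94 in control hosts, with no overlap. This rise was 1.38-fold (0.46 ± 0.13, limma adjusted p = 0.0284), 1 call of 9 where 8.59% of all genes passed. It was lost without Nrp1-deleted replicate 1 or 3 or without control replicate 3 (0.31 to 0.47, adjusted p 0.0729 to 0.195). The remaining genes had differences over the 3 MC38 days of -0.13 ± 0.32 (Lpl), -0.14 ± 0.25 (Fabp4), -0.02 ± 0.15 (Fabp5), 0.12 ± 0.11 (Plin2), -0.02 ± 0.07 (Lipa) and 0.07 ± 0.16 (Nr1h3). Of the macrophage list, 0 of 9 genes were called in MC38 (mean -0.17), and its level ranged over 10.73 to 11.10 on Nrp1-deleted arrays and 10.80 to 11.45 on control arrays. T cell genes were higher in MC38 too, with 5 of 6 called.

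Whether the genotype difference itself differed between tumours was tested by setting the B16 difference against the MC38 difference. Limma called 8 of the 9 genes, where 14% of all genes passed. The difference in B16 was lower than that in MC38 by 1.98 ± 0.30 for Cd36 (adjusted p = 6.19e-05), by 1.75 ± 0.28 for Apoe (adjusted p = 0.000145), by 1.68 ± 0.45 for Lpl (adjusted p = 0.0136) and by 1.41 ± 0.16 for Plin2 (adjusted p = 4.16e-06). For Fabp4 it was lower by 1.41 ± 0.36 (adjusted p = 0.00931) and for Fabp5 by 1.33 ± 0.21 (adjusted p = 0.000109). Lipa (-0.31 ± 0.10, adjusted p = 0.0424) and Abcg1 (0.36 ± 0.12, adjusted p = 0.0492) passed narrowly. Each of these 2 calls was lost in 21 of the 28 fits without 1 array. Nr1h3 did not pass (-0.14 ± 0.23, adjusted p = 0.761). All 9 macrophage genes and 6 of 6 melanocytic genes were also called lower in this comparison.

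Averaged over both tumours, limma called the same 8 genes, where 28.8% of all genes passed, 7 lower and Abcg1 higher. Apoe differed by -1.35 (adjusted p = 1.76e-07) and Plin2 by -0.59 (adjusted p = 3.85e-06). These averages hide the gap between the tumours.

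In control hosts, 8 of the 9 genes rose between the early B16 day and day 12, where 9.14% of all genes were called higher. Lpl rose 4.02-fold (limma adjusted p = 0.0198), Cd36 3.3-fold (adjusted p = 0.00243), Plin2 3.26-fold (adjusted p = 2.8e-06) and Apoe 2.94-fold (adjusted p = 0.00383). Fabp5 (0.83 ± 0.27), Lipa (0.85 ± 0.13) and Abcg1 (0.77 ± 0.16) rose less, and Nr1h3 differed by 0.20 (adjusted p = 0.774). Fabp4 rose by 2.28 ± 0.47 on the log2 scale (adjusted p = 0.0011) over early values near the median of all values, and with its next brightest probe set the change was 0.81 and the call was lost (adjusted p = 0.0773). Without early control replicate 1 the calls of Apoe (1.32, adjusted p = 0.0684) and Cd36 (1.34, adjusted p = 0.0705) were lost. Fabp5 was lost without any 1 of the 4 arrays and Lpl without any but early control replicate 2.

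In Nrp1-deleted hosts the same interval gave a different picture. Cd36 (-1.20 ± 0.38, limma adjusted p = 0.033), Fabp5 (-1.20 ± 0.27, adjusted p = 0.00298) and Plin2 (-0.83 ± 0.20, adjusted p = 0.00579) fell, and Abcg1 rose (1.01 ± 0.16, adjusted p = 0.000109), where 16.2% of all genes passed. Apoe (-0.42), Fabp4 (-0.62), Lpl (0.78), Lipa (0.36) and Nr1h3 did not pass. The call of Abcg1 was lost with its next brightest probe set (0.85, limma adjusted p = 0.175). The Cd36 call was lost with the next brightest probe set (-0.63, adjusted p = 0.468), with the mean over probe sets (-0.57, adjusted p = 0.4) and without any 1 of the 4 arrays (-1.42 to -0.99). Without early replicate 1 the call of Fabp5 was lost (-0.80, adjusted p = 0.106), and without early replicate 1 or day 12 replicate 1 that of Plin2. Without early replicate 2, Apoe was called lower (-1.25, adjusted p = 0.0181).

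**Figure D4:**
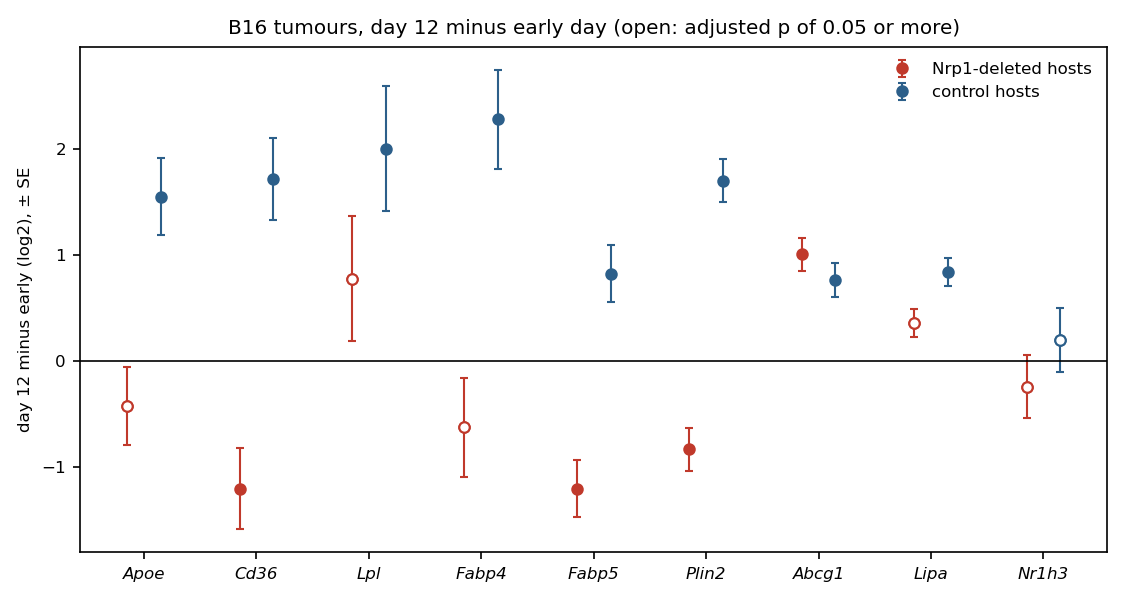
Change of each gene between the early day and day 12 in B16 tumours (log2, day 12 minus early, ± SE from limma), in red for Nrp1-deleted hosts and blue for control hosts, with filled points where the adjusted p was under 0.05. All 9 control changes were above 0, and 3 of the 9 in Nrp1-deleted hosts were.

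The test of the difference between these 2 time courses called 5 genes lower in Nrp1-deleted hosts, where 4.41% of all genes were. They were Cd36 (-2.93 ± 0.54, limma adjusted p = 0.00116), Fabp4 (-2.90 ± 0.66, adjusted p = 0.00698), Plin2 (-2.54 ± 0.29, adjusted p = 8.85e-06), Fabp5 (-2.03 ± 0.38, adjusted p = 0.00144) and Apoe (-1.98 ± 0.52, adjusted p = 0.0205). Lpl (-1.23 ± 0.83, adjusted p = 0.501) and Abcg1 (0.24) did not pass. The Apoe call was lost in 4 of the 8 fits without 1 array, those without early Nrp1-deleted replicate 1, early control replicate 1, day 12 Nrp1-deleted replicate 1 or day 12 control replicate 2 (-1.89 to -1.15), and that of Fabp4 without early control replicate 1 (-2.61, adjusted p = 0.0516) and with the next brightest probe set (-1.37, adjusted p = 0.06). The macrophage list moved likewise. In control hosts 9 of 9 of its genes rose between these days (mean 2.01), and in Nrp1-deleted hosts 2 of 9 fell (mean -0.55). Averaged over the genotypes, Abcg1, Lpl, Lipa and Plin2 were called higher on day 12 (4 of 9, where 13.1% of all genes were called higher). Of these, Lpl was lost without early Nrp1-deleted replicate 2, early control replicate 1 or day 12 Nrp1-deleted replicate 2 (0.89 to 1.32), and Plin2 in 5 of 8 such fits. Apoe was called without early Nrp1-deleted replicate 1 (0.98, adjusted p = 0.00204).

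In MC38 tumours Lipa was the gene that changed most firmly with time. It was 8.96 and 9.03 on day 18 in Nrp1-deleted hosts, against 8.01 and 7.43 on day 6, and 9.0 and 8.98 on day 18 in control hosts, against 7.88 and 7.88 on day 6. No day 6 array reached a day 18 array, and the share of all genes apart in this way was not counted. Over both genotypes Lipa rose 2.29-fold (1.19 ± 0.09, limma adjusted p = 4.46e-08). It rose in Nrp1-deleted hosts (1.28 ± 0.13, adjusted p = 5.01e-06, where 1.94% of all genes passed) and in control hosts (1.11 ± 0.13, adjusted p = 1.53e-05, where 8.94% did).

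Over both genotypes 3 of 9 genes passed between these MC38 days, all higher, where 7.31% of all genes were called higher. Besides Lipa they were Abcg1 (0.39 ± 0.11, limma adjusted p = 0.0232) and Nr1h3 (0.65 ± 0.21, adjusted p = 0.0466), and each of these calls was lost in 5 of the 8 fits without 1 array. Nr1h3 rose in control hosts (1.36 ± 0.30, adjusted p = 0.00493) and differed by -0.07 in Nrp1-deleted hosts. The control call was lost without day 6 replicate 1 or day 18 replicate 2 (1.11 to 1.33). Cd36 differed by 0.76 (adjusted p = 0.07), Apoe by 0.73 (adjusted p = 0.0663) and Fabp5 by -0.57 (adjusted p = 0.0529). Without day 6 Nrp1-deleted replicate 1, Cd36 (0.98, adjusted p = 0.0236) and Fabp5 (-0.71, adjusted p = 0.022) passed, as they did within Nrp1-deleted hosts (Cd36 at 1.88, adjusted p = 0.0155, and Fabp5 at -1.30, adjusted p = 0.0189). Cd36 also passed with its next brightest probe set (1.21, adjusted p = 0.0173). Of the macrophage list 2 of 9 genes rose over this interval (mean 0.35), while 3 of 3 monocyte genes and 2 of 4 neutrophil genes fell, where 5.54% of all genes were called lower.

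The other genes of these pathways were counted from 4 lists. In B16 tumours, 4 of 11 measured genes of lipoprotein and fatty acid uptake fell in Nrp1-deleted hosts and 0 rose, among them Lrp1, an endocytic lipoprotein receptor (-1.62 ± 0.17, limma adjusted p = 2.15e-07), Msr1, a scavenger receptor (-1.50 ± 0.18, adjusted p = 8.8e-07), and Scarb1, the receptor for high-density lipoprotein (-1.30 ± 0.14, adjusted p = 1.27e-07). The median of this list was -0.25. Taken by day, Lrp1 (-3.79) and Msr1 (-3.30) were called on day 12 alone. Scarb1 was called on day 12 (-1.90) and day 18 (-1.03). Of 12 lipid droplet and lipolysis genes, 5 fell and 0 rose (median -0.29). Mgll, which encodes monoglyceride lipase, had the smallest adjusted p (-1.52 ± 0.14, limma adjusted p = 2.8e-08). Plin3, another droplet coat protein, also fell (-0.76, adjusted p = 2.73e-07). Mgll was called on day 18 alone (-3.54), and Plin3 on day 12 (-0.92) and day 18 (-1.01).

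Of 9 lysosomal lipid genes, 6 fell and 0 rose in B16 (median -0.32), among them Lamp1, a lysosomal membrane protein (-0.79 ± 0.06, limma adjusted p = 3.34e-09), and Psap, the precursor of the saposins (-0.96 ± 0.08, adjusted p = 9.27e-09). Of 8 LXR partners, targets and efflux genes, 3 fell and 1 rose (median -0.05). Apoc2, an activator of lipoprotein lipase, fell (-1.67 ± 0.20, adjusted p = 1.19e-06), as did Rxra, the dimer partner of LXR (-0.55, adjusted p = 0.00121), and Pltp, the phospholipid transfer protein (-0.48, adjusted p = 0.0108). Mylip, which targets the low-density lipoprotein receptor for degradation, rose (0.52, adjusted p = 0.00745). These shares stand beside the 22.6% of all genes that passed in B16. On single days, Apoc2 (-3.61), Rxra (-0.65) and Mylip (1.54) were called on day 12 alone. Pltp was called on day 12 (-0.84) and day 18 (-0.69).

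In MC38 tumours limma called 2 of 11 uptake genes, 2 of 8 LXR and efflux genes, 3 of 12 droplet genes and 1 of 9 lysosomal genes between genotypes, shares near the 19.3% of all genes. Dgat1 (1.05 ± 0.16, limma adjusted p = 5.13e-05) and Dgat2 (0.50, adjusted p = 0.0132), the enzymes of the last step of triglyceride synthesis, rose in Nrp1-deleted hosts, and Fitm2, which takes part in droplet formation, fell (-0.39, adjusted p = 0.0417). Smpdl3a, a known LXR target, rose (0.31, adjusted p = 0.00128). Pltp fell (-0.72, adjusted p = 0.000444) and so did Scarb1 (-0.44, adjusted p = 0.022), while Lrp1 (0.56, adjusted p = 0.0259) and Npc1, which moves cholesterol out of the lysosome (0.31, adjusted p = 0.00772), rose. Lrp1 thus passed with opposite signs in the 2 tumours. Between MC38 days 6 and 18, 4 of 9 lysosomal genes rose, as did Lipa, where 7.31% of all genes were called higher, and Psap stood at 0.49 (adjusted p = 0.00283). Over the same interval 4 of 12 droplet genes fell, where 5.54% of all genes were called lower, led by G0s2, an inhibitor of triglyceride lipase (-2.99 ± 0.36, adjusted p = 6.44e-06), and Olr1, the receptor for oxidised low-density lipoprotein, fell as well (-2.47 ± 0.37, adjusted p = 8.06e-05).

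The genes were not a single block across the arrays. With each of the 3 array sets centred on its own mean, Pearson r over the 28 arrays was above 0.5 for 15 of the 36 pairs and below 0 for 13. The closest pair was Cd36 and Plin2 (r = 0.840), followed by Fabp4 and Fabp5 (0.834) and Fabp4 and Plin2 (0.825). Abcg1 ran against Fabp5 (-0.660) and Lpl (-0.553). The arrays share their groups, so these values, given as a description, hold the group differences as well as the spread within groups. The set of B16 day 18 and MC38 day 12 holds both tumours, so differences between the tumours there also enter r.

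Outside the pathway, the 3 genes most like each member were taken from 8539 genes brighter than the median by the same r. For Apoe they were Aif1 (0.985), Cd300c2 (0.979) and Cpne2 (0.978). For Plin2 they were Hmox1 (0.919), Ifitm3 (0.914) and Rnh1 (0.911), and Ifitm3 was also among those of Cd36, with Fnip2 and Wdfy4 (0.817 to 0.832). For Abcg1 they were Gcnt1, Galnt7 and Vsir (0.872 to 0.895), and for Lpl Fh1, Stoml2 and Eno3 (0.822 to 0.842). For Lipa they were Rcbtb2, Man2b1 and Fblim1 (0.918 to 0.932), for Nr1h3 S1pr2, Leprot and Nckap1l (0.777 to 0.812), for Fabp4 Plet1, Ero1a and Septin3 (0.840 to 0.888) and for Fabp5 Plxnd1, Eps8 and Cd70 (0.864 to 0.889).

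The upstream sequences of the closest pair, Cd36 and Plin2, are shown because both genes are known targets of nuclear receptors of the PPAR family, which bind repeats of the hexamer AGGTCA. They are the 250 bases before a RefSeq transcript start on the minus strand, in build GRCm38.p6, at chr5:17835897-17836146 for Cd36 and chr4:86670060-86670309 for Plin2. Capitals mark the hexamer, here as its reverse complement TGACCT in the direction of transcription. TGACCT starts 228 bases before the Cd36 start and 218 before that of Plin2.
Cd36: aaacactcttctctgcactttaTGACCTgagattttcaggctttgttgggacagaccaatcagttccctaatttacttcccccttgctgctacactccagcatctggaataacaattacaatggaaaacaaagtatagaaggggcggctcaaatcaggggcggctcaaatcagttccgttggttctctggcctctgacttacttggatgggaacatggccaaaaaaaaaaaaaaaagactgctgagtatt
Plin2: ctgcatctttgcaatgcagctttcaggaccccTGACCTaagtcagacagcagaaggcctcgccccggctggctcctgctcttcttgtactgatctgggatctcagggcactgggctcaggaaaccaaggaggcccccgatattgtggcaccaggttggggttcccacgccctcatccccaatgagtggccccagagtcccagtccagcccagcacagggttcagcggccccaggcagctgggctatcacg
Among 32851 RefSeq promoters of 300 bases, 250 before and 50 after the start, 16.3% held AGGTCA on either strand. RefSeq entries were given for 6 of the 10 genes (Cd36, Apoe, Abca1, Lipa, Nr1h3 and Plin2), with 9 promoters, and Cd36 and Plin2 were the 2 genes whose promoters held it. Counted by gene, 18.1% of all 27025 genes had the hexamer in a promoter. A pair of AGGTCA hexamers in the same direction with 1 base between them, the form known for PPAR, was in 0.0396% of all promoters on either strand. The same with 4 bases between them, the form known for LXR, was in 0.0152%. Neither was in the promoters of these 6 genes, and each such pair also counts as a hexamer. These matches are descriptions of letters in these windows and no measure of binding.

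Other probe sets of the genes mostly gave like values. The 9 genes had 18 probe sets, and Apoe, Nr1h3 and Plin2 had 1 each. In B16 the next brightest probe set gave a genotype difference of -1.88 for Cd36, -1.81 for Lpl, -1.51 for Fabp5, -1.10 for Fabp4 and 0.63 for Abcg1. The third probe sets of Cd36 (-0.39) and Fabp4 (-0.01) were dim, with means of 3.38 and 2.93. For Lipa the next brightest gave -0.22 and did not pass (adjusted p = 0.329), while the mean over its probe sets gave -0.30 and passed (adjusted p = 0.0277). In MC38 the same Lipa probe set differed by -0.41 and passed (adjusted p = 0.0482), and the B16 minus MC38 difference of Lipa was 0.19 with it, opposite in sign to that of the brightest. The next brightest probe set of Abcg1 likewise had the opposite sign for MC38 day 18 minus day 6 (-0.31) and for B16 day 12 minus early in control hosts (-0.32), and neither value passed. With it the Abcg1 calls of B16 day 18, MC38 day 12, B16 minus MC38 and B16 day 12 minus early were lost as well. So was its call of B16 day 12 minus early within Nrp1-deleted hosts. With the next brightest of Lipa, the Lipa calls of B16 day 12 and of B16 day 12 minus early were lost.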

How the data were processed

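RNA of CD45+ cells sorted from tumours was measured with Affymetrix arrays. Per the labels' protocols, cells were lysed directly after the sort and labelled cRNA came from a 2-cycle amplification, so weak transcripts are less reliable. The authors deposited log2 values. Per the submitters' processing notes, these came from RMA and Partek 6.6. The RMA settings and version were not stated in the sources used here.

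There were 45141 probe sets, 104 of them controls, and a probe table, whose gene symbols can be old, paired 28898 with 1 gene. The brightest probe set stood for each of 17097 genes. Arrays of a group correlated at 0.984 or more, and no 2 arrays above 0.9946. Quantiles of arrays differed by a root mean square of at most 0.0909 within the 3 sets and at least 0.118 between them.

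Group means of all 12 groups were fitted to the 28 arrays with limma 3.58.1 (R 4.3.3), with an intensity trend and Benjamini-Hochberg adjustment over all genes at 0.05, 2-sided. The fit was tested on simulated data. The number of arrays per group limits the precision. All members are named, and the pathway genes named are examples among the 3 called genes of a list with the smallest adjusted p in each direction. Likeness was ranked by Pearson r among genes brighter than the median. The members, the lists, their markers and the tests were chosen with earlier results of these data known. Alternatives were a filter on dim genes, the next brightest or the mean of all probe sets, cyclic loess, centring at the 75th percentile, no trend, array weights, a fit to the compared groups alone, days averaged without B16 day 18, a replicate block and leaving out each array.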

Additional observations from a re-analysis of the deposited data

Results flagged for a closer look

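The genotype difference differed between the tumours for 8 genes, by limma's test of that difference. B16 minus MC38, it was -1.98 for Cd36, -1.75 for Apoe, -1.68 for Lpl, -1.41 for Fabp4, -1.41 for Plin2, -1.33 for Fabp5, -0.31 for Lipa and 0.36 for Abcg1 (log2). Each genotype difference was taken within 1 array set, but the sets differ between the tumours except for B16 day 18 and MC38 day 12.

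The genotype difference also differed between day 12 and the early day in B16 for 5 genes, by the same kind of test. Day 12 minus early, it was -2.93 for Cd36, -2.90 for Fabp4, -2.54 for Plin2, -2.03 for Fabp5 and -1.98 for Apoe. These arrays are of 1 set, with 2 arrays a group.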

How the results depend on the processing

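Of 2853 values of single genes and comparisons recomputed under the alternatives, 2665 kept their direction and side of the threshold, 131 lost a call, 54 gained one and 3 changed sign with a call on one side. A value that stayed uncalled but changed sign is counted among those kept. All 3 sign changes came with the next brightest probe set: Lipa, B16 minus MC38 (0.19, adjusted p = 0.607), Abcg1, MC38 day 18 minus day 6 (-0.31, adjusted p = 0.587), and Abcg1, B16 day 12 minus early in control hosts (-0.32, adjusted p = 0.724). The cause was not tested. For the genotype difference in B16, the calls of Apoe, Cd36, Lpl, Fabp4, Fabp5, Plin2 and Abcg1 held under every alternative run, and that of Lipa was lost with the next brightest probe set and without the B16 day 18 arrays. The count of called genes, 8 in B16, stayed at 8 when any array was left out. Other counts moved. For MC38 day 18 (0 of 9), the filter on dim genes gave 1, array weights 2 and the fit on the compared groups only 4. For MC38 day 12 (1 of 9), the mean over probe sets, array weights and the compared groups only gave 0, and leaving out an array 0 to 1. For the early B16 day (0), array weights gave 3 and leaving out an array 0 to 3. For MC38 over its days (0), the compared groups only gave 1 and leaving out an array 0 to 1, and for MC38 day 6 (0) leaving out an array also gave 0 to 1. For MC38 day 18 minus day 6 (3), the compared groups only gave 7 and leaving out an array 1 to 4. For B16 day 12 minus early (4) leaving out an array gave 2 to 5, and for the genotype difference in that change (5) it gave 3 to 5. Replicate numbers did not pair the arrays: deviations of same-numbered arrays correlated between -0.28 and 0.196. With the replicate block, 6 of 9 genes were called for MC38 day 18 minus day 6 against 3 without it, and within Nrp1-deleted hosts 3 (Lipa, Cd36 and Fabp5) against 1. Changes between 2 days within 1 genotype also moved by more than 1.5 times. For MC38 day 18 minus day 6 in control hosts (2), alternatives other than leaving out an array gave 2 to 5. For B16 day 12 minus early in either genotype, this happened only when an array was left out, leaving 1 array in a group. The counts of the remaining comparisons stayed within 1.5 times. Signal near background limits Nr1h3 and Fabp4, and the probe sets with means of 3.38 and 2.93.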
